A study of Mus musculus with 6 samples.

Results

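The Id genes encode inhibitors of DNA binding, small helix-loop-helix proteins. All 4 mouse members, Id1, Id2, Id3 and Id4, were measured among 18193 genes. They were read by 8 of the 34945 probe sets that the array annotation assigns to exactly 1 gene. Id1 and Id3 had 1 probe set each, and Id2 and Id4 had 3 each. The genes were chosen by name, and a gene's probe set was chosen by its mean level, the highest over the 6 arrays being taken; the others are given beside it. RNA came from Flk1-positive cells isolated at day 4 of embryoid body culture; these bodies are the aggregates that mouse embryonic stem (ES) cells form in suspension culture without leukaemia inhibitory factor. Flk1 is the VEGF receptor encoded by Kdr, and the isolated cells served as a culture counterpart of the haemangioblast, a shared precursor of blood and endothelium. The groups were 3 arrays of Ldb1-/- cells (knockout) and 3 arrays of Ldb1+/+ cells (wild type), numbered as biological replicates 1, 2 and 3 in each. The labels do not say how many ES cell clones were used or what the numbers stand for, so p-values measure the spread between these cultures.

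Id proteins have the helix-loop-helix that lets basic helix-loop-helix (bHLH) transcription factors pair up, but they lack the basic stretch that touches DNA. By pairing with the E proteins, encoded by Tcf3, Tcf4 and Tcf12, they keep E proteins from binding E-box sequences together with tissue-restricted partners such as TAL1, HAND2 or MESP1. In blood cells LDB1 works in a complex that holds TAL1, an E protein, a GATA factor and LMO2, so Id proteins and LDB1 meet at the same E proteins. Id1, Id2 and Id3 are classical early targets of bone morphogenetic protein (BMP) signalling through SMAD1 and SMAD5, which acts in early mesoderm.

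The stretch just upstream of the gene is shown for the members in the RefSeq promoter table (build GRCm38.p6), which were 3 of 4, Id2, Id3 and Id4. The windows are the 250 bases before each RefSeq gene start, at chr12:25096093-25096342 on the minus strand for Id2, chr4:136143572-136143821 on the plus strand for Id3 and chr13:48260866-48261115 on the plus strand for Id4. Capitals mark matches, on either strand, to 4 letter patterns, the E-box CANNTG, the GATA core GATAA, the GC-rich BMP-SMAD sequence GGCGCC and the SMAD element CAGAC.
Id2: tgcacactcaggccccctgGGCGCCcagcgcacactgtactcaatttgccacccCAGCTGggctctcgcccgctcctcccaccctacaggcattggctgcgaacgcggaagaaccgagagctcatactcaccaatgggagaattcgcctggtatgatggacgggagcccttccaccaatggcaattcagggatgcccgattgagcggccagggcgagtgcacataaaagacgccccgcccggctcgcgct
Id3: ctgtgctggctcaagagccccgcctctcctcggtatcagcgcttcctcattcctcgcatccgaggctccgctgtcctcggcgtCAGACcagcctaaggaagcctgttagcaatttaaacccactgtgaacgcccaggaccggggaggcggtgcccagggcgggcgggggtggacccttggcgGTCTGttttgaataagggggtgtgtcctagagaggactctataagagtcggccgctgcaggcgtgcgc
Id4: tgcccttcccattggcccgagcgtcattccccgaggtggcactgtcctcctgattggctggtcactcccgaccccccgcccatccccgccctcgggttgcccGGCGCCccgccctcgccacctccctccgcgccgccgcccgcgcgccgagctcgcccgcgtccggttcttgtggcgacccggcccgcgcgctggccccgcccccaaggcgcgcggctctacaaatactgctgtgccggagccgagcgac
The Id2 window held 1 E-box, whose first base lies 196 bases before the start, and 1 GGCGCC match at 231 bases. The Id3 window held 2 matches to CAGAC, at 167 bases and, on the other strand, at 68 bases. The Id4 window held 1 GGCGCC match at 148 bases. No window held GATAA, and no matches overlapped. Over all 32851 promoter windows of this length, 66.2% held an E-box, 22.6% GATAA, 9.59% GGCGCC and 42.2% CAGAC. The G+C share was 62.8% for Id2, 62.8% for Id3 and 75.6% for Id4, against a median of 52.4% over all windows. These matches describe letters in a short window and say nothing of binding.

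The targeted gene was read first. Ldb1 stood at log2 levels of 7.25, 6.60 and 8.25 in knockout replicates 1, 2 and 3, against 7.78, 7.31 and 8.31 in wild type. The ranges overlapped, and the difference of -0.43 missed the threshold (limma, adjusted p = 1.00). Which stretch of Ldb1 was deleted is not in the labels, so this probe set may lie outside it and leaves the genotype unchecked. Kdr read 12.19, 11.33 and 11.58 in knockout arrays, against 12.44, 12.14 and 11.78 in wild type. Array medians lay between 5.71 and 5.77 on the log2 scale. Wild-type replicate 3 had a narrower distribution than the others. Its upper quartile was 7.92, against 8.14 to 8.27 in the other arrays, and its lower quartile 4.37, against 4.22 to 4.28. That array was the lowest for Id1, Id3 and Id4 and the highest wild-type array for Id2. Number 3 differed from the other numbers in control probe sets: the 5′ Gapdh control was at 12.93 in the knockout and the wild-type array of that number and at 10.19 to 11.11 in the other 4 arrays, and 18S ribosomal RNA was at 12.10 in the knockout and 11.93 in the wild-type array of number 3 and at 8.51 to 9.39 in the rest.

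All 4 Id genes read higher in knockout cells than in wild type, with no overlap between the groups, by 0.45 to 1.74 on the log2 scale. Groups lay apart in this direction for 3.45% of all genes. None of the 4 passed the test over all genes (limma, 0 of 4 called; 0 of 18193 genes, or 0%, were called higher). At an unadjusted p under 0.05, 4 of 4 were higher, against 1.61% of all genes. In bulk RNA a different share of cells of 1 type and a different amount of RNA per cell cannot be told apart. The Id genes were picked for study with these differences already known, so that their joint direction is a description.

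Id4, the member best known from neural and mammary tissue, had the largest difference of the family. Its chosen probe set read 9.61, 8.08 and 8.95 in knockout replicates 1, 2 and 3, against 7.66, 7.17 and 6.58 in wild type. Knockout replicate 2 was the lowest of its group and stood 0.42 above the highest wild-type array, a gap smaller than the spread within either group. The means were 8.88 ± 0.77 in knockout and 7.14 ± 0.54 in wild type (SD, n = 3 each). The difference of 1.74 (SE 0.43, 95% interval 0.72 to 2.77) is a ratio of 3.35 (limma, adjusted p = 0.689). Of all genes, 5 had a larger positive difference.

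Id2, needed for lymphoid tissue and natural killer cells and also active in mesoderm, read 10.44, 11.39 and 10.39 in knockout arrays, against 9.37, 9.42 and 9.49 in wild type. The wild-type arrays lay close together, and knockout replicate 2 stood above the other knockout arrays. The means were 10.74 ± 0.56 in knockout and 9.42 ± 0.06 in wild type (SD, n = 3 each). The difference of 1.32 (SE 0.27, 95% interval 0.66 to 1.97) is a ratio of 2.49 (limma, adjusted p = 0.476). A larger positive difference was read for 22 genes, or 0.121% of all. The lowest knockout array stood 0.90 above the highest wild-type array, the widest gap among the 4 chosen probe sets.

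Id1, a partner of Id3 in vessel and forebrain development in the mouse, read 9.75, 10.18 and 9.94 in knockout arrays, against 9.52, 9.21 and 9.06 in wild type. The gap between the groups was 0.23, about as wide as the spread within each. The means were 9.96 ± 0.22 in knockout and 9.26 ± 0.24 in wild type (SD, n = 3 each), a difference of 0.69 (SE 0.18, 95% interval 0.26 to 1.12) and a ratio of 1.62 (limma, adjusted p = 0.753). A larger positive difference was read for 0.934% of genes.

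Id3 read 12.25, 12.43 and 12.08 in knockout arrays, against 11.86, 11.82 and 11.72 in wild type. The groups were 0.22 apart, and its difference was the smallest of the family. The means were 12.25 ± 0.18 in knockout and 11.80 ± 0.07 in wild type (SD, n = 3 each), a difference of 0.45 (SE 0.14, 95% interval 0.12 to 0.79) and a ratio of 1.37 (limma, adjusted p = 1.00). A larger positive difference was read for 2.66% of genes.

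**Figure D1:**
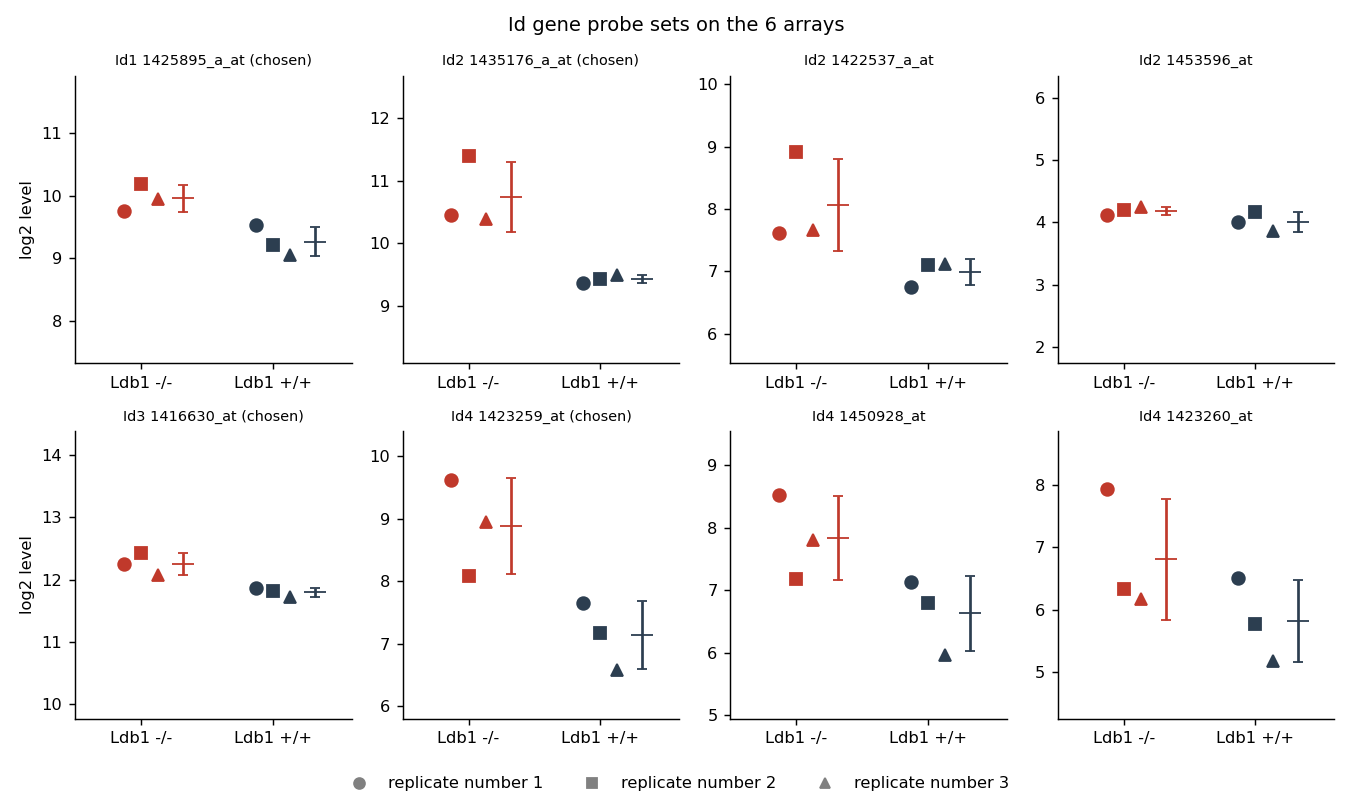
Log2 levels of the 8 Id probe sets in the 3 Ldb1-/- arrays (red, left) and the 3 Ldb1+/+ arrays (dark, right). Marker shapes give the replicate number, bars the mean ± SD of 3 arrays, and every panel spans the same number of log2 units around its own middle; the groups overlap for Id2 1453596_at and Id4 1423260_at only.

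The scale of these differences within the whole array is seen when they are set against all genes. The median difference over 18193 genes was -0.01, and it was 0.0044 over the 11200 genes at or above the median level. The members lie on chromosomes 2 (Id1), 12 (Id2), 4 (Id3) and 13 (Id4). Genes at or above the median level on these chromosomes had median differences of 0.0112, -0.0023, 0.0112 and 0.0239 in the same order. The Id genes were picked with their differences known, so setting them against these medians tests nothing about the chromosomes.

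**Figure D2:**
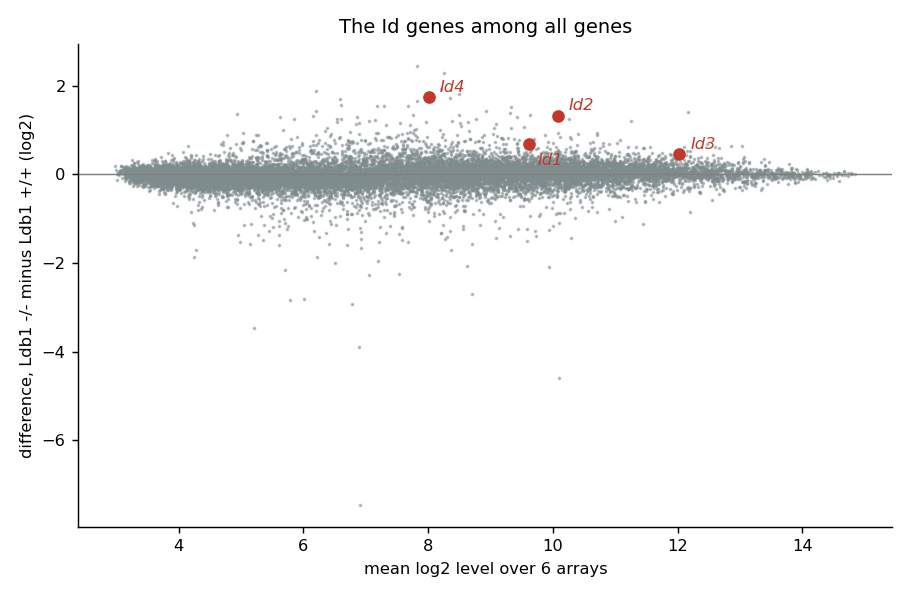
Difference between Ldb1-/- and Ldb1+/+ cells (log2) against the mean log2 level over 6 arrays, 1 point for each of 18193 genes, with the 4 Id genes in red. The Id genes lie above 0, Id4 at 1.74 and Id3, at a mean level of 12.03, at 0.45. Larger positive differences were read for 5 genes in the case of Id4, 22 for Id2, 170 for Id1 and 484 for Id3.

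Taken by replicate number, each member was higher in the knockout array for all 3 numbers, which held for 13.5% of all genes. Id1 differed by 0.23, 0.97 and 0.89 for numbers 1, 2 and 3. Id2 differed by 1.08, 1.97 and 0.90, and Id3 by 0.40, 0.61 and 0.36. Id4 had its smallest difference where these 3 had their largest, at 1.96, 0.91 and 2.37. Knockout replicate 2 was the highest of the 6 arrays for Id1, Id2 and Id3 and the lowest knockout array for Id4. With the number as a block no member passed (limma, adjusted p = 0.0773 for Id4, 0.0910 for Id2, 0.262 for Id1 and 0.317 for Id3), while 0.110% of all genes were called higher. When both arrays of a number were left out of the blocked fit, Id4 and Id2 passed without number 2 (limma, adjusted p = 1.3e-05 and 0.0269) and without number 3 (adjusted p = 0.00128 and 0.000436), but not without number 1 (0.0754 and 0.0738). Those fits rest on 4 arrays and called 267, 815 and 50 genes without numbers 2, 3 and 1, against 62 with all 6 arrays.

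**Figure D3:**
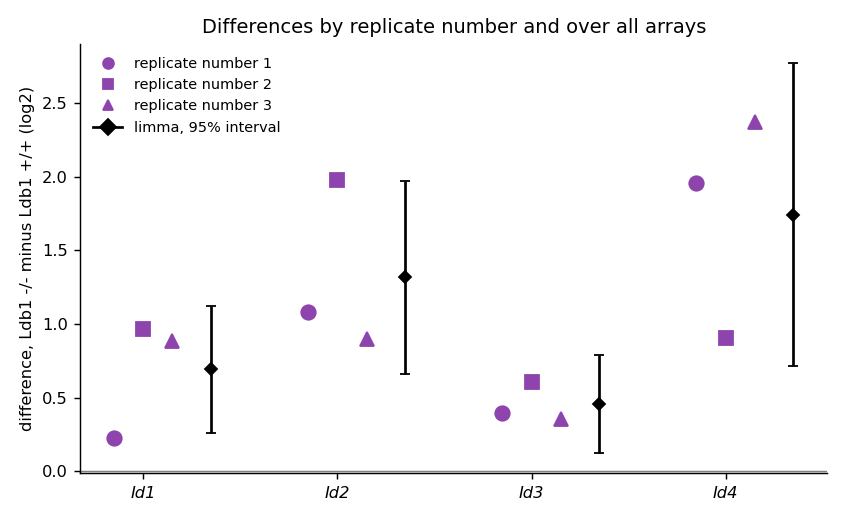
Difference between Ldb1-/- and Ldb1+/+ arrays (log2) for each Id gene, by replicate number (purple) and over all arrays with the 95% interval from limma (black). Id1, Id2 and Id3 differ most for number 2, at 0.97, 1.97 and 0.61, whereas Id4 differs least there, at 0.91.

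The other probe sets of Id2 and Id4 gave the same direction with smaller sizes. The mean over arrays that chose between them was 10.08 for the Id2 probe set taken (1435176_a_at), against 7.53 and 4.10 for the others, and 8.01 for the Id4 probe set taken (1423259_at), against 7.23 and 6.31. For Id2, 1422537_a_at read 7.61, 8.92 and 7.66 in knockout arrays, against 6.75, 7.11 and 7.11 in wild type. The groups did not overlap, knockout replicate 2 was again the highest, and the difference of 1.08 was 0.65 without that array. The third Id2 probe set, 1453596_at, read 4.12, 4.21 and 4.24 in knockout arrays, against 4.00, 4.17 and 3.86 in wild type. It was dim, with 20.5% of probe sets below its mean, and its groups overlapped at a difference of 0.18.

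For Id4, 1450928_at read 8.52, 7.18 and 7.80 in knockout arrays, against 7.13, 6.79 and 5.97 in wild type, a difference of 1.21. Knockout replicate 2 and wild-type replicate 1 lay only 0.05 apart. The remaining Id4 probe set, 1423260_at, read 7.92, 6.33 and 6.16 in knockout arrays, against 6.51, 5.76 and 5.18 in wild type. Knockout replicate 1 stood far above the other arrays, the groups overlapped, and the difference of 0.99 was 0.43 without it. Over the family 6 of 8 probe sets had knockout arrays all above wild type, which 4.00% of all probe sets had. For each of the 3 numbers 8 of 8 were higher, as were 13.5% of all genes, and the share over probe sets was not counted. Id2 and Id4 were each read by 3 of the 8, so these are not 8 separate genes. Of the 8, 0 passed the test over 45037 probe sets (limma, adjusted p from 0.799 to 1.00; 10 probe sets, or 0.0222%, were called in either direction; with the block 0 of 8 and 0.0555% of all probe sets), with 6 at an unadjusted p under 0.05, against 1.61% of probe sets higher at that limit. The mean over a gene's probe sets gave differences of 0.86 for Id2 and 1.31 for Id4.

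The E proteins, with which Id proteins pair, differed little in their means between the genotypes. Of 3 measured, 0 passed the test (limma, adjusted p = 1.00 for each, where 0.0220% of all genes were called in either direction), and 0 had an unadjusted p under 0.05. Tcf3, the gene of E12 and E47, read 10.18, 9.80 and 10.26 in knockout arrays, against 10.37, 9.89 and 10.08 in wild type, a difference of -0.03 with a 95% interval of -0.48 to 0.41. Tcf12, the gene of HEB, stood at 11.60 ± 0.06 in knockout and 11.44 ± 0.14 in wild type (SD, n = 3 each), a difference of 0.16 (-0.15 to 0.47). Tcf4, the gene of E2-2, stood at 9.93 ± 0.23 in knockout and 9.69 ± 0.47 in wild type, a difference of 0.24 (-0.37 to 0.86). The intervals do not show that these genes are equal in the genotypes. The median difference of the list was 0.16, against -0.01 for all genes.

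Among 23 tissue-restricted bHLH genes, whose products commonly pair with an E protein to bind DNA, 17 were below 0, against 53.7% of all genes. The median difference was -0.10. Only 11 of the 23 were at or above the median level of the array, so the count includes dim genes. Without the block 0 passed (limma), and 2 were lower at an unadjusted p under 0.05, against 2.25% of all genes. With the block Hand2 and Tal2 fell, 2 of 23, where 0.231% of all genes were called lower. Hand2, a regulator of heart and limb mesoderm, read 7.89, 7.30 and 6.86 in knockout arrays, against 10.71, 10.04 and 9.41 in wild type (difference -2.70, limma, adjusted p = 0.00103 with the block and 0.174 without). Tal2, a close relative of Tal1, read 5.36, 4.89 and 4.83 in knockout arrays, against 6.22, 6.32 and 6.06 in wild type (difference -1.17, limma, adjusted p = 0.0429 with the block and 0.214 without). The groups lay apart for both. They also did for Lyl1 (-0.81), a blood and endothelial bHLH gene, and for Ascl2 (-0.42), chosen after their values were seen. That made 4 of 23, where knockout arrays lay below wild type for 4.47% of all genes. Tal2 and Ascl2 were dim, at means of 5.61 and 5.41 over the 6 arrays, below the median level of 5.74.

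The other bHLH genes with the highest levels in this list did not pass. Tal1, the bHLH member of the LDB1 complex, read 10.87, 10.55 and 9.33 in knockout arrays, against 10.19, 10.69 and 9.83 in wild type, with a difference of 0.01 and a wider spread in knockout than in wild type. Mesp1, which marks early cardiac mesoderm, differed by -0.55 (95% interval -1.41 to 0.32). Hand1 differed by -1.10 (-2.52 to 0.31), with knockout arrays from 8.37 to 10.78 and wild-type arrays from 10.04 to 11.05. Twist1 went the other way, at 0.55 (-0.48 to 1.59), with 0.29, 0.01 and 1.36 for numbers 1, 2 and 3.

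The Hes and Hey genes encode bHLH repressors, many of them targets of Notch, and were listed with the related repressor genes Bhlhe40 and Bhlhe41. Of 11 measured in this list, 0 passed the test in limma with or without the block, and 0 had an unadjusted p under 0.05 without it. The median difference was 0.04. Hes1 stood at 11.19 ± 0.30 in knockout and 11.20 ± 0.14 in wild type (SD, n = 3 each), and Hey1, also a BMP target, at 10.14 ± 0.24 in knockout and 10.02 ± 0.27 in wild type. The differences were -0.01 (95% interval -0.45 to 0.43) and 0.12 (-0.34 to 0.59). Bhlhe40 differed by -0.63 and Hes6 by 0.25. Knockout arrays all lay above wild type for 1 of 11, Hes5, chosen after its values were seen, by a mean of 0.14, where 3.45% of all genes had this.

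BMP ligands, the upstream signal of Id1 to Id3, had lower means in knockout cells while the Id genes had higher means. All 9 ligands measured had a difference below 0, as had 53.7% of all genes, and theirs ran from -0.98 to -0.10 with a median of -0.29. By number the median was -0.34, -0.38 and -0.47. The direction was not the same for each number in every ligand. For numbers 1 and 2 Bmp10 (0.27 and 0.04) and Gdf2 (0.05 and 0.08) were above 0. Both were below 0 for number 3 only, at -0.94 and -0.52. Bmp8a was above 0 for number 1 (0.21) and Bmp8b for number 3 (0.06). Bmp10 was also dim, at a mean of 4.83, below the median level of 5.74. In limma 0 of 9 ligands passed with or without the block, and 1 was lower at an unadjusted p under 0.05, against 2.25% of all genes. Bmp5 read 9.70, 9.80 and 9.44 in knockout arrays, against 10.76, 10.56 and 10.27 in wild type. The groups lay apart, with a difference of -0.88 (SE 0.18; limma, adjusted p = 0.410). Bmp4, the ligand that induces mesoderm in embryoid bodies, read 12.25, 12.19 and 11.91 in knockout arrays, against 12.59, 12.27 and 12.38 in wild type. Its groups lay apart by only 0.016, with a difference of -0.29 (95% interval -0.66 to 0.07). Bmp2 read 10.74, 8.94 and 9.90 in knockout arrays, against 11.54, 10.99 and 9.99 in wild type. The groups overlapped, and knockout replicate 2, the highest array for Id1, Id2 and Id3, was the lowest for Bmp2. Bmp7 differed by -0.53 (-1.13 to 0.06). Knockout arrays all lay below wild type for 2 of 9 ligands, where 4.47% of all genes had this.

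Receptors and SMADs of the pathway differed little in their means. Of 12 measured, 0 passed in limma with or without the block and 0 had an unadjusted p under 0.05 without it, with a median difference of 0.03. Smad1, a transducer of BMP signals, stood at 12.48 ± 0.45 in knockout and 12.17 ± 0.38 in wild type (SD, n = 3 each), a difference of 0.31 (95% interval -0.36 to 0.98). Smad4, the SMAD shared with TGF-beta signalling, differed by -0.07 (-0.51 to 0.36). The type I receptor gene Bmpr1a differed by -0.0020 (-0.38 to 0.37) and the type II receptor gene Bmpr2 by 0.11 (-0.79 to 1.01).

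Genes that act against BMP signals numbered 11 measured, with a median of 0.01 and 0 passing in limma with or without the block. Fst, the gene of follistatin, which binds activins and some BMPs, read 9.92, 8.59 and 10.25 in knockout arrays, against 9.24, 8.85 and 8.64 in wild type. Knockout replicate 2 lay below all 3 wild-type arrays and the other knockout arrays above them. Bmper, an extracellular modulator of BMPs, differed by -0.31 (95% interval -0.68 to 0.06), Smurf2, a ubiquitin ligase of the pathway, by -0.26 (-0.90 to 0.38), and Skil, a SMAD corepressor gene, by 0.0046 (-0.38 to 0.39).

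Other target genes of BMP and SMADs lay closer to 0 than the Id genes. Of 10 measured, 0 passed in limma with or without the block, 0 had an unadjusted p under 0.05 without it, and the groups overlapped for each. Their differences ran from -0.20 to 0.26, with a median of -0.03, and no member reached the 0.45 of Id3. The difference between the lists was not tested. Because the Id genes were picked with their differences known, smaller differences in another list show nothing about BMP targets. Smad6, an inhibitory SMAD that BMP signals induce, stood at 10.49 ± 0.34 in knockout and 10.52 ± 0.36 in wild type (SD, n = 3 each), a difference of -0.02 (95% interval -0.61 to 0.56). Msx2, a homeobox gene, differed by -0.09 (-0.41 to 0.23). Bambi, a decoy receptor gene, differed by 0.20 (-0.55 to 0.95) and Tbx3, a T-box gene, by 0.26 (-0.50 to 1.02).

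**Figure D4:**
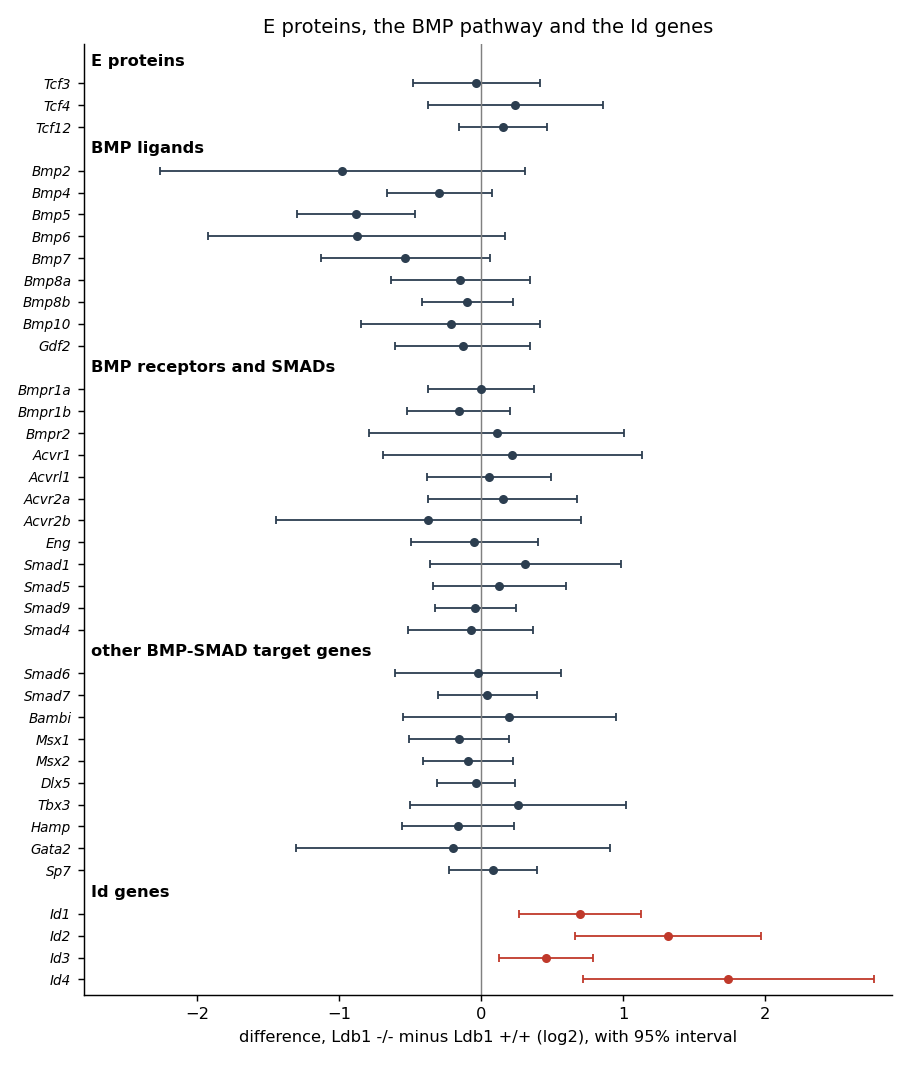
Differences between Ldb1-/- and Ldb1+/+ cells (log2) with 95% intervals from limma, unadjusted, for the E proteins, BMP ligands, BMP receptors and SMADs, other BMP-SMAD targets and the Id genes (red). All 9 ligands lie below 0 and the 4 Id genes above it, while the E proteins lie between -0.03 and 0.24.

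Genes tied to Id proteins through the cell cycle or protein stability were also read. Of 12 measured, 10 were above 0, against 46.3% of all genes, and the median difference was 0.25, with 0.17, 0.15 and 0.54 for numbers 1, 2 and 3. In limma 0 passed with or without the block, and 0 had an unadjusted p under 0.05 without it. Cdkn1c and Cdkn1a, genes of cyclin-dependent kinase inhibitors that E proteins can activate in other cells, differed by 0.52 (95% interval -0.07 to 1.10) and 0.46 (-0.22 to 1.14). Usp1, which in human cells removes ubiquitin from ID proteins, stood at 12.81 ± 0.13 in knockout and 12.60 ± 0.13 in wild type (SD, n = 3 each), a difference of 0.22 (-0.11 to 0.54). Ets1, of a family that Id proteins can also bind, differed by -0.30 (-1.15 to 0.54). Knockout arrays all lay above wild type for 1 of 12, Elk4, chosen after its values were seen, by a mean of 0.38, where 3.45% of all genes had this.

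The genes whose profile over the 6 arrays was most like that of each member were found by Pearson's r, as a description of arrays in which genotype is part of the profile. For Id1 they were Cox7a1 (0.981), Psenen (0.974), Lypd6 (0.973), Cpxm2 (0.969) and Alox15 (0.960). For Id2 they were Cav1 (0.988), Lgals1 (0.977), Alox15 (0.965), Pycard (0.961) and 2310034G01Rik (0.958). For Id3 they were Serpinf1 (0.981), Rbm8a (0.975), Stambpl1 (0.972), Timp1 (0.971) and Alox15 (0.971). Alox15, which encodes a lipoxygenase, was thus among the nearest of 3 members, whereas the nearest of Id4 were Hsd17b11 (0.988), Lmna (0.986), Nab2 (0.984), Dipk2a (0.983) and Tmem198b (0.982). With 11200 genes to choose from and 6 arrays, values of this size are in part set by that choice.

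Alox15 read 7.98, 8.34 and 7.93 in knockout arrays, against 7.43, 7.17 and 7.22 in wild type, with the same array on top as for Id1 to Id3. Its difference of 0.81 did not pass (limma, adjusted p = 0.410). Lgals1, the gene of galectin-1, read 12.70, 13.22 and 12.69 in knockout arrays, against 11.39, 11.47 and 11.55 in wild type, and rose with the block (difference 1.40, limma, adjusted p = 0.0256 with the block and 0.148 without). Hsd17b11, of a steroid dehydrogenase family, read 10.96, 10.50 and 10.70 in knockout arrays, against 10.32, 10.07 and 9.76 in wild type, with knockout replicate 2 the lowest of its group as for Id4.

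Markers of the cell types that the isolated population could hold were read beside the Id genes. Of 7 Flk1-positive mesoderm and haemangioblast markers measured, all were at or above the median level of the array and 0 passed in limma, with levels, taken off the log scale and summed over the markers of an array, of 13007 to 20717 in knockout and 12185 to 15740 in wild-type arrays. Smooth muscle and fibroblast markers summed to 1228 to 1731 in knockout and 796 to 1133 in wild type over 6 markers, of which 0 passed in limma, 4 had a difference above 0 and 2 below. Acta2, Tagln and Thy1, at differences of 0.76, 0.76 and 0.81, were the 3 with an unadjusted p under 0.05, where 1.61% of all genes were higher at that limit. Knockout replicate 2, the highest array for Id1, Id2 and Id3, was the lowest knockout array for Id4 and also for Acta2 (8.94) and Tagln (8.54). It was not the lowest for Thy1 (7.75), Col1a1, Col3a1 or Postn. This order was looked at after the values were seen and was not tested. Col1a1 differed by -0.19, and Col3a1 stood at 3.49 ± 0.22 in knockout and 3.58 ± 0.15 in wild type (SD, n = 3 each), near the dim end of the array. Cardiac mesoderm markers summed to 2374 to 4346 in knockout and 4734 to 8878 in wild type over 6 markers, with Hand2 called with the block. Erythroid markers summed to 210 to 228 in knockout and 617 to 775 in wild type over 4 markers. Hbb-bh1 was called without the block and, with it, Hbb-y too. The groups overlapped for the remaining markers, Hba-x at a difference of -0.24 and Epor at 0.0079. Pluripotency markers summed to 1079 to 2734 in knockout and 1159 to 1226 in wild type over 5 markers, with 0 called. Their median difference was 0.47, with 0.19, 0.09 and 1.16 for numbers 1, 2 and 3, and 1 of 5 lay below 0. Zfp42, named after its values were seen, was the 1 with an unadjusted p under 0.05, at a difference of 0.78. Its knockout arrays all lay above wild type, where 3.45% of all genes had this. Endothelial markers summed to 193 to 646 in knockout and 301 to 387 in wild type over 5. Visceral and definitive endoderm markers summed to 227 to 479 in knockout and 406 to 529 in wild type over 5. Neuroectoderm markers summed to 367 to 1196 in knockout and 521 to 1140 in wild type over 5, with 0 called in either list. The part of such cells in the Id differences was not tested.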

How the data were processed

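RNA from 6 samples was hybridised to 1-colour Affymetrix mouse arrays. As deposited, each value is the log2 level of a probe set. RMA and the affy package are named in the submitters' processing notes, and versions and settings are not given in the sources used here. Usually, RMA subtracts background, gives all arrays the same distribution and combines the probes of a set. In the deposited values the quartiles still differed between arrays, with wild-type replicate 3 set apart. Of 45101 probe sets, 64 controls were left out of tests. Probe sets assigned to exactly 1 gene numbered 34945, those with several genes 932 and those with none 9160.

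Each of 18193 genes was tested through its probe set of highest mean level, knockout against wild type, with lmFit and eBayes in limma 3.58.1 (R 4.3.3), Benjamini-Hochberg adjustment over all genes and a threshold of 0.05. The fit was tested on simulated data, drawn without any link between arrays of the same number. All probe sets were tested in a second fit. Deviations from the genotype mean correlated at 0.707, 0.322 and 0.456 between arrays of numbers 1, 2 and 3, each above the limit of 0.1. Between arrays of unlike numbers the correlation ran from -0.496 to 0.108, so knockout 2 with wild type 3 also passed that limit. The numbers were taken to pair the arrays in an alternative fit only. The labels state no pairing, so the main fit left the number out. SEs, intervals and p-values not marked as blocked are from that unpaired fit. A fit with the number as a block was run as the alternative. Other alternatives left out arrays, changed the scaling, variance model, level filter or choice of probe set.

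The members, lists and tests were chosen with earlier results of these data known. Genes named were the members, Ldb1, Kdr, list genes that passed with or without the block, up to 4 others per list with the highest mean, the 5 genes most like each member, and defining markers. Exceptions are stated. Some listed genes were not analysed here, and each count of a list is over the genes measured. The number of arrays limits the precision. Plots were made in Python 3.11.15 with matplotlib 3.10.9.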

Additional observations from a re-analysis of the deposited data

How the results depend on the processing

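Over 21 alternatives for Id1 and 22 for each other member, the 4 differences were above 0 in 87 of 87 cases and past the threshold in 4, all in blocked fits with 2 numbers. Those were Id2 at 0.99 and Id4 at 2.16 without number 2, and Id2 at 1.53 and Id4 at 1.43 without number 3. These fits have little left to estimate the spread, and the cause of their calls was not tested. With the replicate block and all arrays the differences are unchanged by construction (0.69, 1.32, 0.45 and 1.74 for Id1 to Id4), and none passed in limma. Repeating quantile normalisation gave 0.64, 1.29, 0.42 and 1.74 in the same order. Leaving out 1 array gave 0.58 to 0.82 for Id1, 0.99 to 1.49 for Id2, 0.37 to 0.54 for Id3 and 1.38 to 2.14 for Id4, with 0 calls. Without probe sets marked _a_, _s_ or _x_ the Id2 difference was 0.18, since only the dim probe set remains, and Id1 has no value. Genes past the threshold numbered 4 in the main comparison and 1 to 6 with an array left out. The count was 62 with the replicate block, 37 with the number as a random block, 68 with array weights and 48 with the block and averaged probe sets. In the blocked fit it was 50, 267 and 815 without numbers 1, 2 and 3, and without the block, chosen after seeing the data, 1, 1 and 2. Genes of the pathway lists, cell type markers aside, called numbered 0 in the main comparison and with any array left out (limma), 2 with the replicate block or the random block, 3 with array weights, 1 with the block and averaged probe sets, and 2, 7 and 11 in the blocked fit without numbers 1, 2 and 3. The causes of these shifts were not tested. The Id probe sets called stayed at 0 with the replicate block and with any array left out.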

Other observations

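The members did not share an order within the knockout arrays. Knockout replicate 2 was the highest array for Id1 (10.18), Id2 (11.39) and Id3 (12.43), and the lowest knockout array for Id4 (8.08), Bmp2 (8.94) and Fst (8.59). These genes were set side by side after their values were seen, and no test was made.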
